A study of Mus musculus with 30 samples.

Results

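The regions described here are 8 windows of the mouse genome (build GRCm39), each named for a growth-promoting proto-oncogene: Egfr, Met, Braf, Ctnnb1, Yap1, Myc, Ccnd1 and Tert. They are set by fixed coordinates, and the rule uses no measured value, though the genes were picked with earlier results of these data known. They are 8 of 13267 windows laid over the nuclear genome, with gaps beside some of the 8 and at chromosome ends. Insertion sites of therapeutic DNA transposons were mapped in genomic DNA of whole livers of TT1 mice, which are Fah KO animals that model tyrosinemia type I, a defect of tyrosine breakdown. The mice of 1 group, 17 livers, had been treated in vivo with a piggyBac (PB) vector system and those of the other, 13 livers, with a Sleeping Beauty (SB) vector system. DNA was taken when the monitoring of the mice ended, and both groups carry the Fah deletion. Strain, sex, age, dose, the carried transgene and its promoter, and how livers numbered above 12 differ from livers 1 to 12, are not stated in the sources used here. The labels name no untreated livers, so a background level from mapping error was not measured.

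Transposon vectors are cut out of a plasmid by their transposase and pasted into chromosomes. PB inserts at TTAA and SB at TA, and in other cells PB is known to favour open chromatin near active genes while SB spreads more evenly. An insertion beside a growth-promoting gene can raise that gene's activity, which is why such loci are watched in gene therapy. In Fah KO livers, hepatocytes that regain Fah can outgrow their neighbours. The genes of the 8 windows act at different points of growth control. Egfr and Met encode receptor tyrosine kinases for epidermal and hepatocyte growth factor, and Braf encodes a kinase of the RAS-MAPK pathway below such receptors. Ctnnb1 encodes beta-catenin, the coactivator of Wnt signalling, and Yap1 the coactivator held back by Hippo signalling. Myc encodes a transcription factor, Ccnd1 the cell cycle regulator cyclin D1, and Tert the catalytic subunit of telomerase.

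Promoter sequences of these genes differ in whether they hold the PB target. Of 32851 mouse promoters of 250 bases before the start (RefSeq, GRCm38.p6), 48.97% hold at least 1 TTAA and 98.7% at least 1 TA. TTAA and TA read the same on both strands, and every TTAA contains a TA. Promoters of 6 of the 8 genes were matched by symbol, 7 starts in all, and 2 of the 7 hold a TTAA. Those of Egfr and Yap1 are shown because their windows stood highest above their surroundings in PB livers. Capitals mark TTAA, and coordinates are those of GRCm38.p6, another build than that of the insertion sites, so no site was placed on these bases.
Egfr promoter (chr11:16751953-16752202, plus strand): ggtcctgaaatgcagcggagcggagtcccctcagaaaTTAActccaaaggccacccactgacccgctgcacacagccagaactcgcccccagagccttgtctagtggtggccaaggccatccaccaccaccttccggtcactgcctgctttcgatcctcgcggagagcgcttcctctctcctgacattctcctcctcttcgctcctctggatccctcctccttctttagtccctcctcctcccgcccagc
Yap1 promoter (chr9:8004597-8004846, minus strand): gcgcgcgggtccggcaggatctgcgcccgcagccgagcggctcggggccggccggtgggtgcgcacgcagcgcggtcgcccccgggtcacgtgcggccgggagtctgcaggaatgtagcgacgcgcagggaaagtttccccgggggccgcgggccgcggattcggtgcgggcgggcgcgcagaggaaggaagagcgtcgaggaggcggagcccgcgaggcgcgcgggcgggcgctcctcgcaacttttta
The Egfr promoter carries 1 TTAA and the Yap1 promoter none. No match says only that these letters are missing from this window.

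Livers differed in the number of sites found. PB livers held 16364 to 124238 nuclear sites (median 71300) and SB livers 4893 to 120219 (median 80250). The smallest library, SB liver 13, had 4 sites in the 8 windows together and none in 6 of them. In that liver, 1 site in a window of 200 kb is worth a density of 10.2 and 3 sites, the limit that a count of 0 allows, 30.7. Density is given as sites per Mb per 10000 nuclear sites of a liver, and pooled density is this quantity computed from the summed sites of a group's livers. Intervals and limits cover only counting error and the spread between livers. Every deposited site had a number of at least 3 beside its strand, called its support here. The sources used here do not say what it counts, so it is compared only by rank within a liver.

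The 8 windows cover 1450 kb, which is 0.0545% of the span of the genome in which sites were found. PB livers had 0.132% ± 0.0153 (SD, n = 17) of their sites there and SB livers 0.0989% ± 0.016 (SD, n = 13). In counts this was 1675 PB sites, 17 to 177 in a liver, and 932 SB sites, 4 to 124 in a liver. The total was not tested. Each window was compared between the vectors and with its own flanks, in fits over all windows of the genome. The other windows were placed by coordinate alone and were not matched to the 8 for genes or for number of TTAA and TA.

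**Figure D1:**
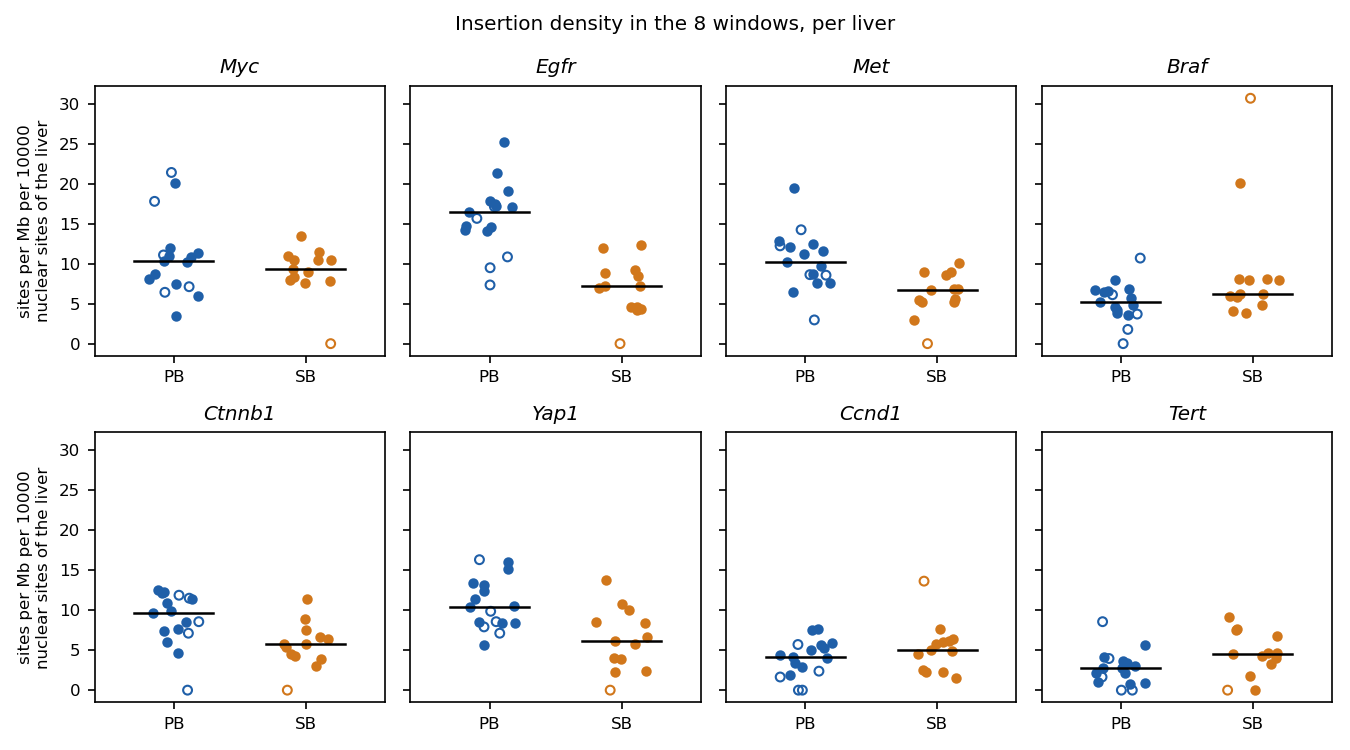
Insertion density of each liver in the 8 windows, in sites per Mb per 10000 nuclear sites of that liver (vertical axis), for PB and SB livers. Filled circles are livers 1 to 12, open circles livers numbered above 12, and black lines medians. In Egfr 14 of 17 PB livers lie above every SB liver, while in Braf and Tert no PB liver does, nor in Ccnd1, where the highest SB point is the single site of SB liver 13.

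Egfr (NCBI Gene 13649; chromosome 11, 16650001 to 16900000) was the densest of the 8 windows in PB livers. The 17 PB livers ranged from 7.33 to 25.25 with a median of 16.5, and the 13 SB livers from 0 to 12.3 with a median of 7.20. All 17 PB livers lay above the SB median and 14 lay above every SB liver, while 8 of the 13 SB livers lay below every PB liver. PB density was 2.18-fold that of SB (log2 difference 1.13, SE 0.14, adjusted p = 4.3e-13). The pooled PB density of 16.75 stood at the 99.0 percentile of tested windows, and the pooled SB density of 7.67 at the 92.8 percentile. The 3 lowest PB livers were numbers 15, 16 and 17, with only 11, 3 and 4 sites in the window against a PB median of 34. PB livers 1 to 12 averaged 17.44 ± 3.27 (SD) and the 5 PB livers numbered above 12 averaged 12.1 ± 4.15 (SD). This difference was not tested, and the second mean rests on few sites.

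Against 1 Mb on each side, the Egfr window was raised in both vector systems. PB flanks had a pooled density of 2.71, so the window was 6.17-fold above them (log2 2.63, SE 0.09, adjusted p = 7.9e-75), and 17 of 17 PB livers showed this direction. SB flanks had a pooled density of 3.14 and the window was 2.44-fold above them (log2 1.29, SE 0.13, adjusted p = 1.0e-15), in 12 of 13 livers. SB liver 13 was the exception with no site in the window. The window to flank ratio itself was higher in PB than in SB livers, by 1.34 on the log2 scale (SE 0.15, adjusted p = 1.1e-14). In the RefSeq gene order of GRCm38.p6 the coding neighbours of Egfr are Sec61g and Fbxo48, but sites were not assigned to exons or introns because that annotation is of another build.

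Met (NCBI Gene 17295; chromosome 6, 17400001 to 17600000) had the same order with smaller differences. PB livers ranged from 2.96 to 19.5 with a median of 10.2, and SB livers from 0 to 10.1 with a median of 6.69. Of 17 PB livers, 9 lay above every SB liver and 15 above the SB median. PB density was 1.63-fold that of SB (log2 0.70, SE 0.17, adjusted p = 0.00024). The window was 2.89-fold above its flanks in PB livers (pooled 10.7 against 3.71, log2 1.53, SE 0.10, adjusted p = 2.3e-29) and 1.515-fold in SB livers (pooled 6.58 against 4.345, log2 0.60, SE 0.14, adjusted p = 0.00044). The SB call was lost with flanks of 500 kb, where the log2 ratio was 0.26 (adjusted p = 0.17). Its coding neighbours are Cav1 and Capza2. The PB ratio exceeded the SB ratio by 0.93 (log2, SE 0.18, adjusted p = 3.6e-06).

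Braf (NCBI Gene 109880; chromosome 6, 39550001 to 39750000) lies between Ndufb2 and Mrps33 and showed no called difference between the vectors. PB livers ranged from 0 to 10.7 with a median of 5.23 and SB livers from 3.86 to 30.7 with a median of 6.19. The highest SB value was 3 sites in SB liver 13, and the next, 20.04, was 14 sites in SB liver 4. The PB minus SB difference was -0.34 on the log2 scale (95% interval -0.72 to 0.03, adjusted p = 0.14). In SB livers the window exceeded its flanks (pooled 6.90 against 5.08, log2 0.44, SE 0.14, adjusted p = 0.0078). In PB livers it did not pass the test against 1 Mb flanks (pooled 5.44 against 5.02, log2 0.12, adjusted p = 0.46). Those PB flanks are uneven, with a pooled density of 7.72 on the left and 2.32 on the right. The left flank holds the densest 50 kb bin of any profile, 214 PB sites (density 34.7) centred 825 kb left of the window centre, and with flanks of 500 kb, which leave it out, the PB log2 ratio was 0.61 (adjusted p = 0.00017).

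Ctnnb1 (NCBI Gene 12387; chromosome 9, 120700001 to 120850000) lies between Rpl14 and Ulk4 and was denser in PB livers. They ranged from 0 to 12.5 with a median of 9.66, against 0 to 11.35 with a median of 5.73 in SB livers. Of 17 PB livers, 15 lay above the SB median and 6 above every SB liver. The difference was 0.59 (log2, SE 0.19, adjusted p = 0.0082). The window was 2.24-fold above its flanks in PB livers (pooled 9.41 against 4.20, adjusted p = 1.1e-15). In SB livers pooled densities were 6.25 and 5.335 (log2 0.23, 95% interval -0.09 to 0.55, adjusted p = 0.25). The ratios differed by 0.94 (log2, SE 0.20, adjusted p = 4.4e-05).

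Yap1 (NCBI Gene 22601; chromosome 9, 7900001 to 8050000) lies between Birc3 and Cfap300 and was also denser in PB livers, which ranged from 5.68 to 16.3 with a median of 10.45. SB livers ranged from 0 to 13.7 with a median of 6.19, and 5 of the 13 lay below every PB liver. Of 17 PB livers, 16 lay above the SB median but only 3 above every SB liver. The difference was 0.76 (log2, SE 0.19, adjusted p = 0.00049). The window exceeded its flanks in both systems, 3.95-fold in PB livers (pooled 11.1 against 2.81, adjusted p = 9.9e-34, 17 of 17 livers) and 2.12-fold in SB livers (pooled 6.53 against 3.09, adjusted p = 1.9e-07, 10 of 13 livers). The ratios differed by 0.90 (log2, SE 0.21, adjusted p = 0.00012). Egfr and Yap1 were thus the windows with the highest ratios to their flanks among the 8 in both systems.

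Myc (NCBI Gene 17869; chromosome 15, 61750001 to 61950000) lies between A1bg and Gsdmc in the coding gene order and was dense in both systems. PB livers ranged from 3.51 to 21.4 with a median of 10.3, and SB livers from 0 to 13.5 with a median of 9.35 (the 0 is SB liver 13). The difference was 0.05 (log2, 95% interval -0.24 to 0.35, adjusted p = 0.79). Among tested windows the pooled SB density, 9.74, stood at the 99.1 percentile and the pooled PB density, 10.1, at the 91.6 percentile. The median of all windows was 2.44 in PB and 3.48 in SB. The 3 highest PB livers were numbers 16, 1 and 17, with 7, 28 and 6 sites, so the values of livers 16 and 17 rest on low counts. Myc exceeded its flanks in PB (log2 0.66, SE 0.10, adjusted p = 1.5e-08) and in SB livers (log2 0.51, SE 0.12, adjusted p = 0.00026). The flanks differ in level, with pooled PB density 3.43 on the left and 9.34 on the right, and 4.58 and 9.06 in SB. Beside 10.1 in PB and 9.74 in SB, the window thus stood near its right flank and well above its left. Neither side was tested alone.

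Ccnd1 (NCBI Gene 12443; chromosome 7, 144400001 to 144550000) lies between LTO1 and Tpcn2 and held few sites, 83 PB and 62 SB. PB livers ranged from 0 to 7.65 with a median of 4.15 and SB livers from 1.5 to 13.6 with a median of 4.96. The highest SB value was 1 site in SB liver 13, and the next was 7.635 in SB liver 4. The densities differed by 0.04 (log2, 95% interval -0.44 to 0.53, adjusted p = 0.89). Its right flank is only 343 kb long because the last site of the chromosome follows there. PB livers were above their flanks (pooled 4.49 against 2.91, log2 0.62, SE 0.17, adjusted p = 0.0012), with 12 of 17 livers in this direction, and SB pooled densities were 4.35 in the window and 5.14 in the flanks (adjusted p = 0.30). The ratios differed by 0.86 (log2, SE 0.26, adjusted p = 0.0049), although the window densities themselves did not differ in the test. The flank densities, 2.91 in PB and 5.14 in SB, stand beside this.

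Tert (NCBI Gene 21752; chromosome 13, 73700001 to 73850000) lies between Clptm1l and Slc6a18 and was the least dense of the 8 windows in PB livers. They ranged from 0 to 8.56 with a median of 2.75, and SB livers from 0 to 9.15 with a median of 4.50. Only 2 of 17 PB livers lay above the SB median. PB density was 1.69-fold lower (log2 -0.75, SE 0.28, adjusted p = 0.024), a call that rests on 50 PB and 65 SB sites and is lost with limma-voom (adjusted p = 0.099). In PB livers the window was below its flanks (log2 -0.46, SE 0.21, adjusted p = 0.034, 4 of 17 livers above). These flanks are uneven, with a pooled PB density of 1.51 on the left and 5.95 on the right beside 2.705 in the window, which thus lies above its left flank. That call was lost with a support of at least 10 (adjusted p = 0.052) and with flanks of 2 Mb (adjusted p = 0.061), and the sign turned with flanks of 500 kb (0.13, adjusted p = 0.63). In SB livers the log2 ratio was 0.21 (adjusted p = 0.38).

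**Figure D2:**
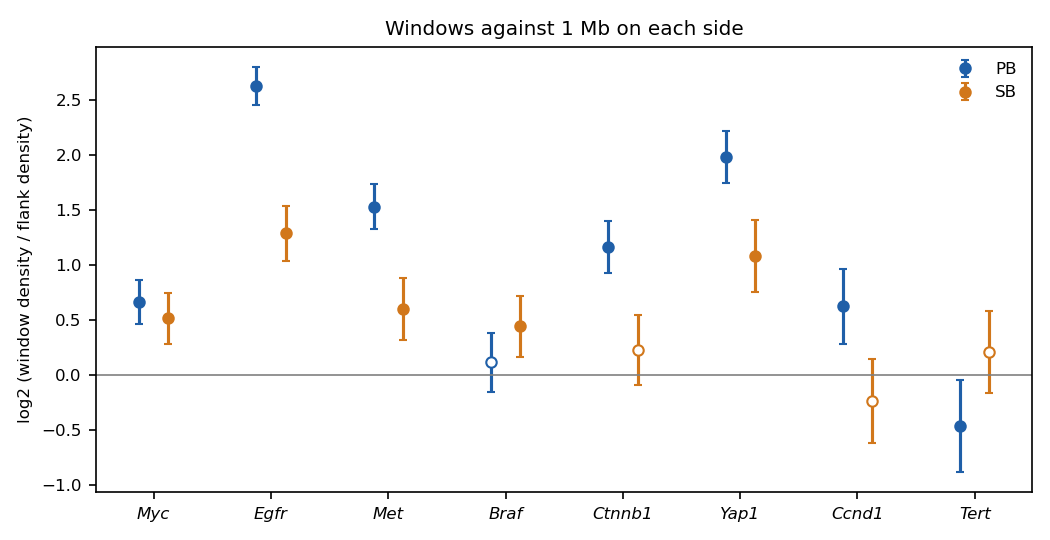
Log2 ratio of the density in each window to that in 1 Mb on each side (vertical axis), for PB and SB livers, with 95% intervals. Filled points passed the test at an adjusted p under 0.05 and open points did not. The Egfr and Yap1 points are the highest in each vector system, PB at 2.63 and 1.98 and SB at 1.29 and 1.08.

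Over the 8 windows, 5 differed between PB and SB in density, 4 higher (Egfr, Met, Ctnnb1, Yap1) and 1 lower (Tert) in PB. Of all 12526 windows tested, 38.7% were called, 12.8% higher and 25.9% lower in PB. The median log2 difference was 0.32 over the 8 and -0.38 over all windows. When each window was instead taken relative to the median window, a choice made after seeing the data, 29.5% of windows were called. Myc was then called higher (0.43, adjusted p = 0.019), Tert was lost (-0.38, adjusted p = 0.33), and the split of all calls moved to 2844 higher and 849 lower from 1601 and 3245. Egfr, Met, Ctnnb1 and Yap1 were higher under both scalings. With livers 1 to 6 alone 1 window, Egfr, was called (12.2% of all windows), and with livers 7 to 12 alone 3 were, Egfr, Met and Yap1 (25.2%).

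Against their flanks, 7 of the 8 windows were called in PB livers, 6 higher and 1 lower (Tert). The genome background was 72.3% called, 26.1% higher and 46.1% lower, so the count of calls alone sets nothing apart, while most of the calls here were higher. This background is not matched for genes or target sites, so whether the direction is particular to these loci was not tested. The median log2 ratio was 0.91 for the 8 windows and -0.34 for all windows. In SB livers 5 were called, all higher (Egfr, Met, Braf, Yap1, Myc), beside 47.8% of windows called, 21.1% higher and 26.8% lower. The medians were 0.48 and -0.09. The window to flank ratio was higher in PB than in SB for 5 windows, beside 34.1% of windows called, 12.6% higher and 21.5% lower. Egfr, Met, Ctnnb1, Yap1 and Ccnd1 passed, and Myc (0.15), Braf (-0.33) and Tert (-0.67, adjusted p = 0.054) did not. With sites within 10 bp merged, Tert passed as lower in PB (-0.67, adjusted p = 0.0496), which made 6 windows.

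**Figure D3:**
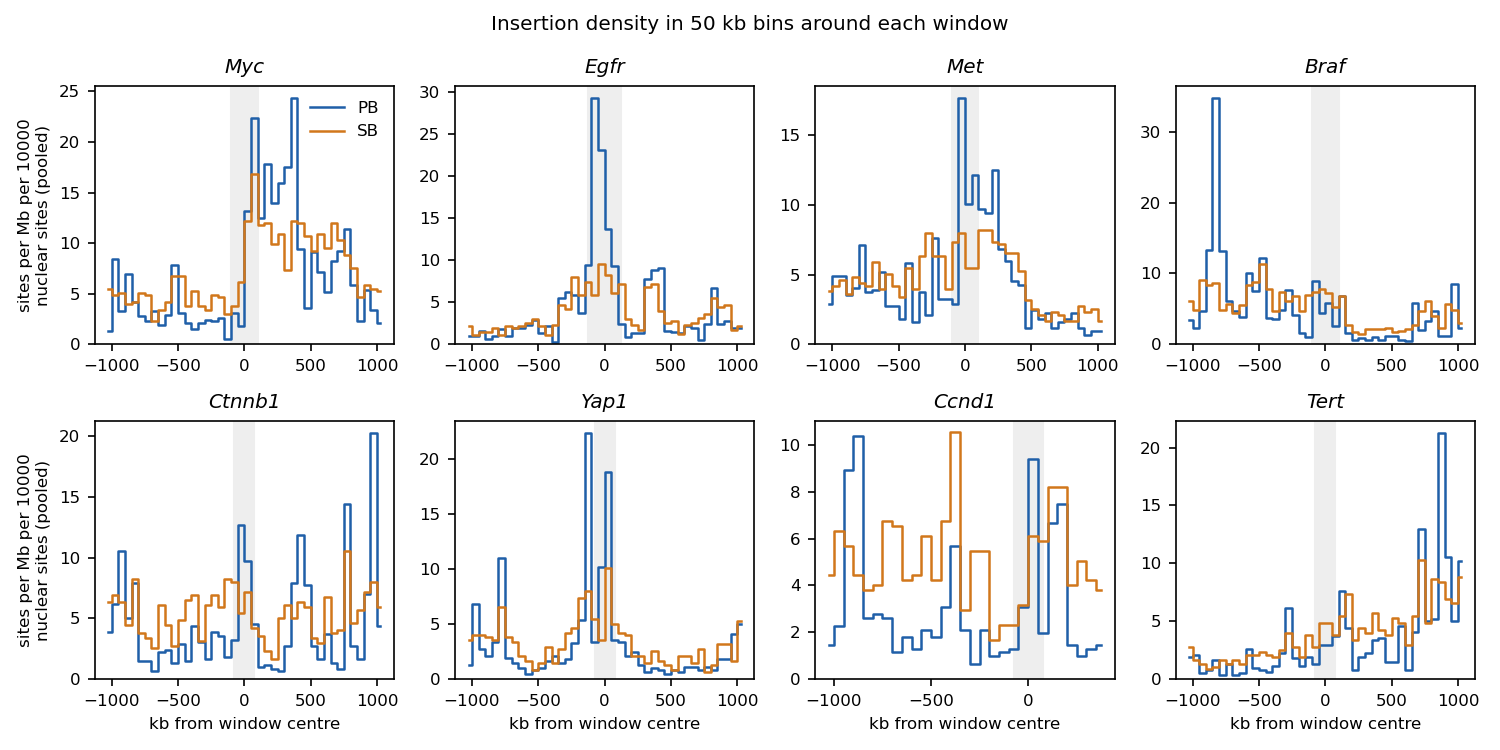
Pooled insertion density in 50 kb bins (vertical axis, sites per Mb per 10000 nuclear sites) by distance in kb from each window's centre, for PB and SB. The grey band is the window, and the vertical scale differs between panels. In Egfr the PB peak of 29.2 lies inside the band, while in Braf the highest PB bin (34.7) lies 825 kb to its left.

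Sites were not spread evenly around or inside the windows. Around Egfr the highest PB bin of 50 kb lay 75 kb left of the centre (180 sites, density 29.2), and the highest SB bin 25 kb left of it (45 sites, density 9.48). Around Yap1, PB had 1 peak just outside the window, 125 kb left of its centre (density 22.4), and another inside, 25 kb to the right (18.8). Around Myc, PB density stayed high to the right of the window and reached 24.35 at 375 kb, above the 22.4 inside at 75 kb. Around Ctnnb1 and Tert the densest PB bins also lay in a flank, at 975 kb (20.3) and 875 kb (21.3).

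**Figure D4:**
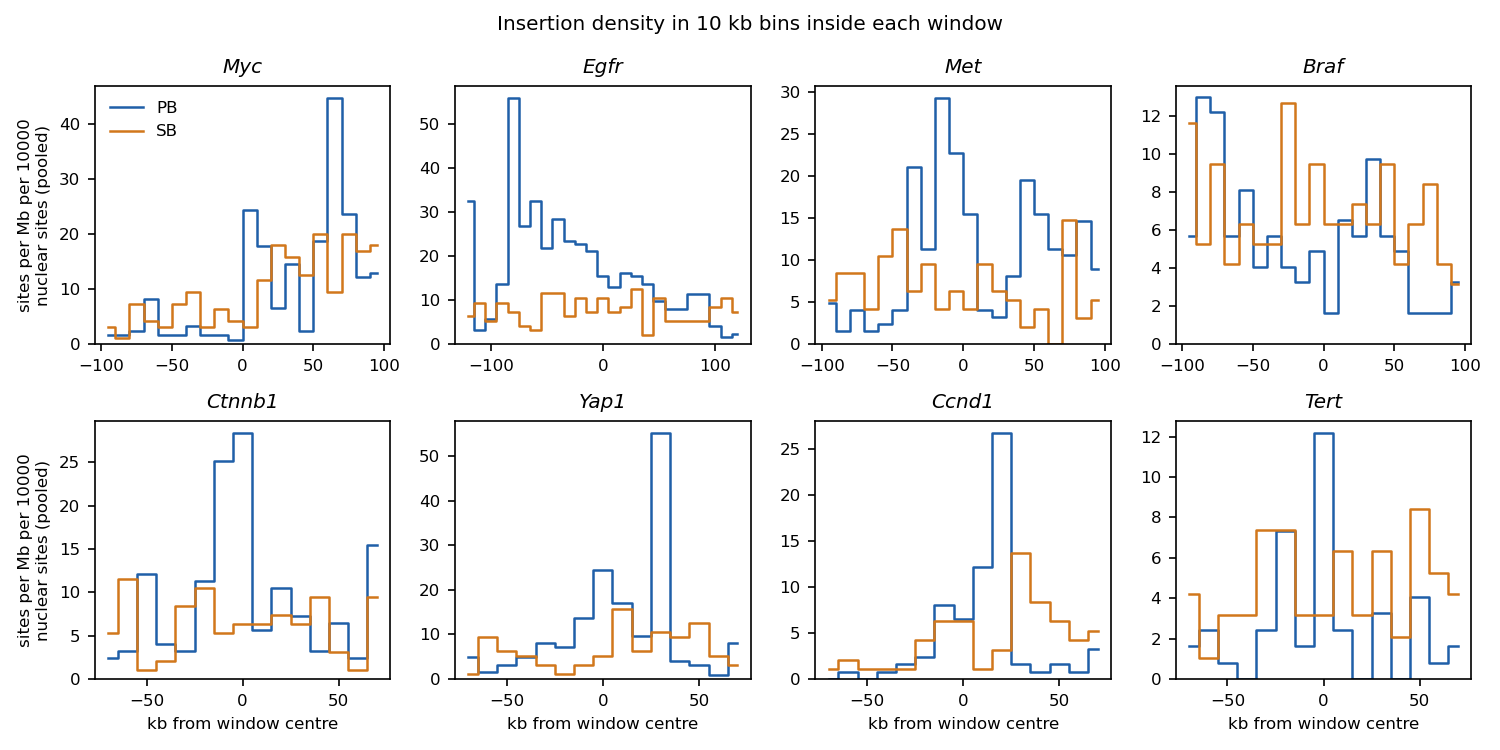
Pooled insertion density in 10 kb bins (vertical axis, sites per Mb per 10000 nuclear sites) by distance in kb from the window's centre, for PB and SB. The vertical scale differs between panels. In Yap1 and Ccnd1 a single PB bin reaches 55.2 and 26.8, while the SB line has no bin above 15.8 and 13.7.

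The share of a window's PB sites in its densest bin of 10 kb ran from 11.9% in Braf (16 of 134) to 39.76% in Ccnd1. In Yap1, 68 of 205 PB sites (33.2%) fell into 9:8000001-8010000, at 31 positions and in 16 of 17 livers. In Ccnd1, 33 of 83 (39.76%) fell into 7:144490001-144500000, and in Tert 15 of 50 (30%) into 13:73770001-73780000. In Myc, 55 of 249 (22.1%) fell into 15:61910001-61920000. PB sites of Myc were sparse in the left part of the window, where 1 to 10 sites fell in each of the first 10 bins. The densest Egfr bin, 11:16690001-16700000, held 69 sites (13.4%), the densest Met bin 36 (13.6%) and the densest Ctnnb1 bin, 9:120770001-120780000, 35 sites (20.1%). SB was densest in another bin in each of the 8 windows, and its densest bins held 8 to 19 sites. These made up 20.97% of the SB sites of Ccnd1, 16.1% of Yap1, 12.4% of Ctnnb1, 12.3% of Tert, 11.2% of Met, 10.3% of Myc, 9.16% of Braf and 6.59% of Egfr. Bin by bin, the correlation of PB with SB density ran from -0.39 (Met, 20 bins) to 0.38 (Myc, 20 bins), given as a description because bins share livers and base composition.

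Reused positions, those with a site on the same strand in another liver of the group, made up 38.6% ± 7.85 (SD, n = 17) of PB window sites per liver. In the flanks of the same livers the share was 27.2% ± 2.55 (SD) and in the nuclear genome 29.3% ± 1.37 (SD), and the windows exceeded the flanks in 16 of 17 livers. In SB livers the shares were 2.30% ± 1.74 in the windows, 2.60% ± 1.03 in the flanks and 2.13% ± 0.15 in the genome (SD, n = 13). Livers share these coincidences, so no test was made. Thinning to 34929 sites left out the livers with fewer. The window shares were then 23.8% ± 4.39 (SD, n = 13) for PB and 0.483% ± 1.13 (SD, n = 12) for SB.

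The share differed between windows. Pooled over PB livers it was 40.5% in Egfr against 13.75% in its flanks, 40.15% in Met against 16.2%, and 38.5% in Yap1 against 21.7%. In Ctnnb1 it was 43.1% against 32.7%, in Ccnd1 39.76% against 25.9%, and in Myc 38.15% against 33.9%. It was lower than in the flanks in Braf (20.9% against 25.6%) and in Tert (16.0% against 32.4%). The windows with shares above their flanks include all 4 that were denser in PB than in SB, and also Myc and Ccnd1, which were not called in density. Coincidences between livers become more frequent where sites are denser, so share and density are not independent measures. Without the positions that occur in more than 1 liver, several calls ended. Egfr alone was then called higher in PB density (log2 0.79, adjusted p = 0.00032; 1 of 8 windows, beside 7.27% of all windows) and in the window to flank ratio (log2 0.68, adjusted p = 0.010; 1 of 8, beside 4.80%). For Met, Ctnnb1 and Yap1 the log2 differences in density fell to 0.47, 0.15 and 0.55 (adjusted p = 0.13, 0.78 and 0.11). For Tert it was -0.58 (adjusted p = 0.26). Against the flanks in PB livers, Ccnd1 (0.28, adjusted p = 0.36) and Tert (-0.12, adjusted p = 0.70) were no longer called, and Braf was (0.39, adjusted p = 0.035). This alternative removes far more PB than SB sites, and a larger part of windows with a high reused share. It thus treats neither the groups nor the windows alike.

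At single positions, the most livers were reached by PB. The Egfr position 11:16692192-16692195 had sites in 10 livers (10 records, 4 plus and 6 minus), and the Ctnnb1 position 9:120848024-120848027 also in 10 livers (13 records, since a liver can have both strands). Braf 6:39569245-39569248 reached 8 livers, and so did 2 Myc positions, of which 15:61911110-61911113 is named. Met 6:17492177-17492180 reached 7, as did 3 Yap1 positions, of which 9:8003402-8003405 is named. Ccnd1 7:144495731-144495734 reached 6 and Tert 13:73828749-73828752 reached 4. The most used PB position of the genome reached all 17 livers, and the most used SB position 9 of 13. In SB no position in the windows reached more than 2 livers, and in Tert none reached more than 1. Of the SB positions in 2 livers, the leading ones by support were 15:61925643-61925644 in Myc, 11:16889665-16889666 in Egfr, 6:17574378-17574379 in Met and 6:39554694-39554695 in Braf. In Ctnnb1 it was 9:120746129-120746130, in Yap1 9:7934528-7934529 and in Ccnd1 7:144460052-144460053. A position was counted as shared where SB used the central TA of a PB site. PB and SB shared 1 position in Myc, 1 in Met, 2 in Braf and 1 in Yap1, and none in Egfr, Ctnnb1, Ccnd1 and Tert. The windows held 41 (Tert) to 331 (Egfr) PB positions and 58 (Ccnd1) to 179 (Myc) SB positions. A share over the genome is not given beside these counts, so they are a description only.

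The strand share was tested against each liver's own. No window of the 8 was called in PB or in SB, beside 0.00798% of all windows in each. The largest departure was in Myc. SB livers had 118 minus and 67 plus sites there, 12.7 percentage points above the livers' own minus share (SE 3.71, adjusted p = 0.35, raw p = 0.00062), while PB livers had 109 minus and 140 plus sites (-7.13 points, SE 3.20, adjusted p = 0.84). In Yap1 the PB departure was -7.43 points (adjusted p = 0.85). Raw p under 0.05 came up for 2 PB windows and 1 SB window of the 8, beside 714 and 728 of 12526 windows.

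**Figure D5:**
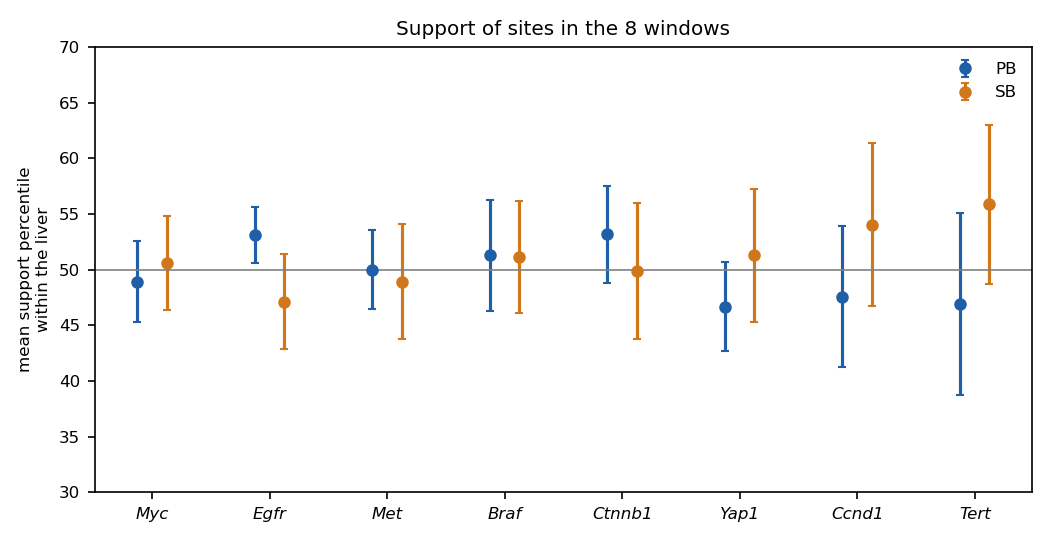
Mean within-liver support percentile of the sites in each window (vertical axis) for PB and SB livers, with 95% intervals. The horizontal line is 50, the value of a liver's average site. Intervals include 50 except for Egfr in PB (53.1), which did not pass the test after adjustment.

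Support, ranked within each liver, gave no call. No window of the 8 was called in PB (0.12% of all windows were, 0.0319% higher and 0.0878% lower), in SB (0.0479%) or in the difference (0%). Egfr sites in PB livers lay 3.11 percentile points above the middle (SE 1.30, raw p = 0.016, adjusted p = 0.44), and Egfr in SB livers at -2.87 (adjusted p = 0.86). For the 8 windows, raw p under 0.05 came up for 1 in PB, 0 in SB and 1 in the difference. Among all windows these numbers were 1067, 807 and 816. Myc in PB was at -1.07 and in SB at 0.62, and the 95% intervals of all windows but Egfr in PB included 0 in each group. The Egfr difference was 5.99 points (adjusted p = 0.68).

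Best supported sites, the top 1% of each liver, were counted in the windows and in the genome. PB windows held 18 of 1675 (1.07%, genome 0.997%) and SB windows 8 of 932 (0.858%, genome 0.989%). By window, the highest shares were 9 of 516 PB sites in Egfr (1.74%, flanks 0.448%) and 5 of 185 SB sites in Myc (2.70%, flanks 1.31%). Braf and Tert had no such site in PB, and Egfr, Braf, Ctnnb1, Ccnd1 and Tert had none in SB. These shares were not tested. In Tert 0 of 50 PB sites were in the top 1%, which allows up to 6.0%, and in Egfr 0 of 182 SB sites, which allows up to 1.65%. The single best ranked site of each window was at the 97.8 to the 99.95 percentile of its liver. Each is the highest of 50 to 516 sites, so a rank near the top follows from the choice, and these sites are given as a description. In Myc it was 15:61909635-61909638 on the plus strand in PB liver 3 (support 390, liver median 75, highest in that liver 1417), a position found in 5 PB livers. In SB it was 15:61928009-61928010 on the minus strand in liver 7 (support 186, liver median 46). For Egfr the best ranked sites were 11:16748864-16748867 in PB liver 4 (support 272, in 3 livers) and 11:16713586-16713587 in SB liver 2 (support 162). For Met they were 6:17542277-17542280 in PB liver 6 (support 204) and 6:17456405-17456406 in SB liver 7 (support 164). Those of Braf were 6:39702664-39702667 in PB liver 7 (support 38) and 6:39660229-39660230 in SB liver 11 (support 83).

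The same measure gave, for Ctnnb1, 9:120730715-120730718 in PB liver 5 (support 142) and 9:120815155-120815156 in SB liver 11 (support 85). Yap1 had 9:7999815-7999818 in PB liver 3 (support 282) and 9:7984225-7984226 in SB liver 7 (support 163). Ccnd1 had 7:144493988-144493991 in PB liver 11 (support 139, in 5 livers), which lies in the densest PB bin of that window, and 7:144525064-144525065 in SB liver 4 (support 215). Tert had 13:73845284-73845287 in PB liver 1 (support 222) and 13:73821441-73821442 in SB liver 9 (support 111). None of the SB sites among these was found in another liver.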

How the data were processed

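DNA of 17 PB and 13 SB livers was fragmented, linker-ligated and amplified with a transposon-specific primer (SBE-seq), per the labels' protocols. The submitters' processing notes name cutadapt, BWA and GRCm39 but no version. The authors deposited 1 table of sites per liver (PB 4 bp, SB 2 bp wide), with a strand and a number of unstated meaning, used here as a rank, and merged tables that were not used. Each liver is 1 replicate. P-values of the count fits rest on a spread between livers that both groups share and that was moderated over all tested windows. Very small p-values thus lean on the other windows as well as on the 30 livers. PCR copies are not independent molecules.

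Sites were counted in the 8 windows and in whole 200 kb windows of the nuclear genome that did not overlap them. Those that averaged 1 site or more per liver and had at least 0.5 of the full flank length were tested, 12526 in all. Density was compared with a quasi-Poisson fit and window against flank with a quasi-binomial fit, in R 4.3.3, spread moderated by limma 3.58.1. Strand share and support percentile were tested with limma, weighted by sites. P-values were Benjamini-Hochberg adjusted over all windows, with calls at an adjusted p under 0.05. EdgeR, the test named in the design, was not used: the window counts were made here from site lists, and these fits took its place. The fits were tested on simulated data, where only part of the changes put in was called, so the lack of a call does not show that a difference is absent. Figures used matplotlib 3.10.9.

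The members and lists were chosen with earlier results of these data known. All 8 windows are named, with the position in most livers and the best ranked site of each. Livers of equal number were not treated as pairs in the main fits. In window densities less the group mean, none of 13 such pairs correlated above 0.1 (-0.011 to 0.038). Of the 13 PB livers, 3 correlated best with the SB liver of their own number. With few sites per window, this check cannot exclude a weak pairing. RefSeq tables of GRCm38.p6 gave names, gene order and promoters only, and a second gene list that needed coordinates was not analysed here. Alternatives covered the livers used, reused positions, support, merging, flank and window sizes, the low-site filter, library size, limma-voom and the replicate block.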

Additional observations from a re-analysis of the deposited data

Results flagged for a closer look

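The window to flank ratio differed between PB and SB livers, by the test of the difference itself, in 5 windows. The log2 difference was 1.34 in Egfr, 0.93 in Met, 0.94 in Ctnnb1, 0.90 in Yap1 and 0.86 in Ccnd1. With positions found in more than 1 liver left out, the values were 0.37 in Met, 0.56 in Ctnnb1, 0.52 in Yap1 and 0.63 in Ccnd1, with adjusted p from 0.17 to 0.31. In Ccnd1 the window densities were 4.49 in PB and 4.35 in SB and the flank densities 2.91 and 5.14.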

How the results depend on the processing

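Of 512 values of single windows under an alternative, 466 kept their direction and side of the threshold, 21 fell below it, 4 passed it and 21 changed sign. These include strand share and support, which had no call to lose. For PB versus SB density alone, 92 values were kept, 12 fell below the threshold, 1 passed it and 7 changed sign. With positions in more than 1 liver left out, 1 window instead of 5 was called in PB against SB density, and 1 instead of 5 in the window to flank ratio, Egfr in both. Livers 1 to 6 alone gave 1 window (Egfr) and livers 7 to 12 alone 3 in density; fewer livers were tested in both. Reuse after thinning to equal site numbers was 23.8% ± 4.39 in PB and 0.483% ± 1.13 in SB, with 13 PB and 12 SB livers left and fewer sites in each. The changes of sign were of values that did not pass the test, apart from Tert in PB against its flanks (0.13 with flanks of 500 kb). Without reused positions they were, on the log2 scale, Myc -0.24, Braf 0.059 and Ccnd1 -0.13 in density and Myc -0.035 and Braf 0.015 in the ratio, and in points Ccnd1 SB strand share 4.42, Met support difference -0.42 and Braf support difference -0.75. Density changed sign for Ccnd1 in livers 1 to 6 (-0.41), for Myc in livers 7 to 12 (-0.083) and with limma-voom (-0.0054), and for Braf when centred on the median window (0.033). Braf also turned with flanks of 500 kb in the ratio difference (0.11) and with flanks of 2 Mb in PB (-0.060). Support differences turned in livers 1 to 12 (Met PB 0.52, Braf difference -0.042) and with a support of at least 10 (Yap1 SB -1.01, Braf difference -1.30, Yap1 difference 0.48). With the replicate block, the Braf support difference was -0.49, and 5 windows were called in density and 5 in the ratio, as without it; no call changed, and Egfr was at 1.18 in density. Leaving out SB liver 13 left the number of windows called at 5 or 0 in each comparison that was rerun. PB density against flanks was not among these. TMM factors and DESeq2 were not run. The cause of these changes was not tested except where stated. Depth limits Tert and Ccnd1 most, with a median of 3 and 4 PB sites per liver.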
